A study of Mus musculus with 12 samples.

Results

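The expression of 9 genes known from eosinophils, some of which other myeloid cells also use, was followed by name through 12 microarrays of alveolar macrophages: 4 surface receptors (Ccr3, Il5ra, Siglece, Adgre4), 4 granule proteins (Prg2, Prg3, Epx, Ear6) and the lipoxygenase Alox15. They were 9 of the 19505 genes with a single symbol on the array, all 9 were measured, and each had 1 probe set, the group of probes that reports 1 gene. The arrays came from male C57 Black mice and fell into 4 groups of 3 biological replicates: intact liver, and day 1, day 3 and day 7 after removal of 70% of the liver. In every group, controls included, lung cells had been captured on magnetic beads by means of anti-Siglec-F antibody, and total RNA was hybridised to Clariom S mouse arrays. The labels give no age, no sham operation and no number of mice per array, so p-values measure the spread between these arrays. The labels' protocol also carries a passage on macrophages cultured with other liver cells, which fits none of the 4 groups and was not used.

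Eosinophils are granulocytes that mature in the bone marrow under interleukin-5 and enter tissues along eotaxin gradients. Interleukin-5 acts through a receptor made of the chain encoded by Il5ra and a common beta chain, and eotaxins act through Ccr3. Their granules, filled during maturation in the marrow, hold major basic protein (Prg2), its homolog (Prg3), eosinophil peroxidase (Epx) and ribonucleases of the Ear family. Mouse eosinophils carry Siglec-F, as alveolar macrophages do, so an antibody to it can bind both. In RNA of a bulk sample, fewer cells of a type and less RNA per cell cannot be told apart.

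The labelled cell type was checked on 20 measured markers of alveolar macrophages. None was below the background limit on all 3 arrays of any group, and their mean log2 level lay between 8.44 and 9.26 on every array. The background limit of an array is here the 95th percentile of its intron control probe sets, 5.01 to 5.69 on the log2 scale. Siglecf, the gene of the sort antigen, stood at 8.79 ± 0.13 (SD, n = 3) with intact liver, 8.33 ± 0.39 at day 1, 8.54 ± 0.15 at day 3 and 8.73 ± 0.18 at day 7, and none of these differences passed. On 3 arrays, day 1 replicate 2, day 3 replicate 1 and day 7 replicate 2, exon and intron controls were separated less well than on the others (area under the curve 0.809 to 0.837 against 0.852 to 0.888). The labelling control dap was high on day 3 replicate 1 and on day 7 replicates 2 and 3 (6.47 to 7.77, against 2.13 to 2.89 on the others).

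The receptor genes Ccr3 and Il5ra were higher on every array of days 3 and 7 than on any array of intact liver or day 1. The granule protein genes Prg2 and Epx had their lowest means at day 3 and varied widely among arrays of one group. Ear6, a ribonuclease gene, was higher at days 1 and 7 than with intact liver or at day 3. Prg3 and Il5ra were below the background limit on all 12 arrays, Epx exceeded it on 2 and Ccr3 on 3. Adgre4 and Alox15 did not separate the groups. In limma's fit over all 22206 probe sets, no member passed an adjusted p of 0.05 in any of the 6 comparisons of groups, so all of these are differences in values that did not pass.

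The comparisons with intact liver ask whether a gene differs at a given day after resection. The share of all probe sets that passed was 0% at day 1, 0.0045% at day 3 and 0.018% at day 7, beside 0 of 9 members each time, and at an unadjusted p under 0.05 the members numbered 1, 4 and 4, against 8.94%, 4.46% and 5.70% of all probe sets. Groups that did not overlap, with all resected arrays higher, were found for 1 member at day 1 (Ear6), against 7.42% of all probe sets. At day 3 there were 2 such members (Ccr3 and Il5ra), against 7.19%. At day 7 there were 4 (Ccr3, Il5ra, Siglece and Ear6), against 6.11%. Between days, the share that passed was 0% for day 3 against day 1, 0% for day 7 against day 3 and 0% for day 7 against day 1, with 0 of 9 members in each and 3, 2 and 2 members at an unadjusted p under 0.05, against 9.60%, 5.12% and 6.74% of all probe sets. Day 3 lay wholly above day 1 for 2 members (Ccr3 and Il5ra), against 7.03% of all probe sets, and wholly below it for 1 (Ear6), against 6.24%. Day 7 lay wholly above day 3 for Siglece and Ear6, against 4.84%, and wholly above day 1 for Ccr3 and Il5ra, against 4.55%. The 3 comparisons with intact liver share the same 3 control arrays.

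**Figure D1:**
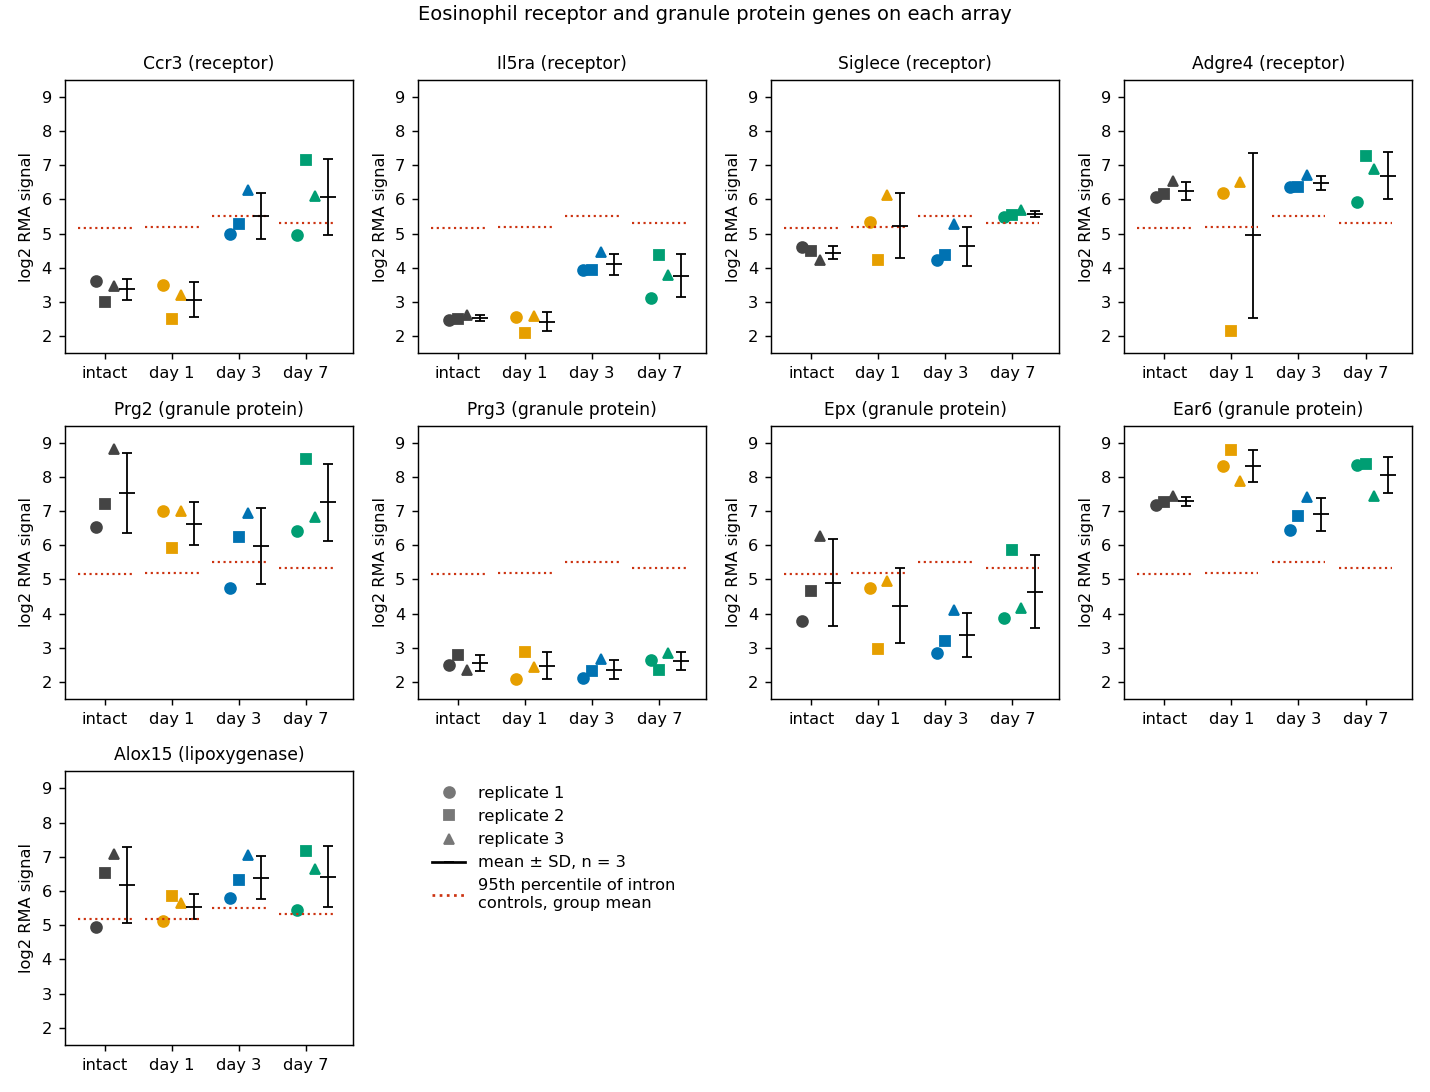
Log2 level of each of the 9 genes on the 12 arrays, by group (intact liver and days 1, 3 and 7 after resection, 3 arrays each); symbols are arrays by replicate, bars the mean ± SD, and dotted lines the group mean of the background limit. Ccr3 and Il5ra stand higher at days 3 and 7, with no overlap, while Prg2 and Epx spread widely within groups and Prg3 lies near 2.5 throughout.

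Among the receptors, Ccr3, which binds eotaxins and draws eosinophils into tissue, differed most. With intact liver its log2 levels were 3.60, 3.01 and 3.48 in replicates 1, 2 and 3, and at day 1 they were 3.49, 2.50 and 3.21. At day 3 they were 4.98, 5.28 and 6.26, and at day 7 4.96, 7.16 and 6.10. All 6 arrays of the later days lay above all 6 of intact liver and day 1, and the order of the day 3 and day 7 groups could not be told beyond their spread. Ccr3 exceeded the background limit on 3 of the 12 arrays (day 3 replicate 3 and day 7 replicates 2 and 3), so it was not above background with intact liver or at day 1.

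Ccr3 was 2.14 ± 0.48 (SE) log2 units higher at day 3 than with intact liver (limma, adjusted p = 0.385). At day 7 the difference was 2.71 ± 0.48 (95% interval 1.65 to 3.76, adjusted p = 0.140). Ccr3 was not above background on any intact array, and exceeded the limit on 1 of 3 arrays at day 3 and 2 of 3 at day 7, so no fold is given. At day 3 its mean, 5.51, was level with the mean background limit of those arrays, 5.51. At day 1 the difference from intact was -0.30 ± 0.48 (adjusted p = 0.862). Against day 1, where no array was above background either, day 7 differed by 3.00 ± 0.48 (adjusted p = 0.573). The difference at day 7 was 2.16 (adjusted p = 0.0112) without the 3 weakly separating arrays, which leaves 2 arrays at day 7. Without the arrays that carried the labelling control, which leaves 1 array at day 7 that is assumed to vary like the others, it was 1.59 (adjusted p = 0.630).

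Il5ra, the ligand-binding chain of the interleukin-5 receptor, which controls eosinophil output and survival, was also higher on the later days. Its values with intact liver were 2.47, 2.51 and 2.62, and at day 1 they were 2.57, 2.11 and 2.60. At day 3 they were 3.92, 3.92 and 4.47, and at day 7 3.13, 4.39 and 3.80. The later days again lay wholly above the earlier groups, but on 0 of 12 arrays did Il5ra exceed the background limit, so no fold is given. The fitted log2 difference from intact was 1.57 ± 0.28 at day 3 (adjusted p = 0.187) and 1.24 ± 0.28 at day 7 (adjusted p = 0.312), against -0.11 ± 0.28 at day 1 (adjusted p = 0.923). At day 7 it was 0.60 (adjusted p = 0.793) without the arrays that carried the labelling control. From day 3 to day 7 the mean of Il5ra differed by -0.33 ± 0.28 and that of Ccr3 by 0.56 ± 0.48.

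Without the weakly separating arrays both genes passed at day 3: Ccr3 was 2.40 higher (adjusted p = 0.00897) and Il5ra 1.66 higher (adjusted p = 0.00609). In that fit, which kept 2 arrays at day 3 and 3 with intact liver, 252 probe sets passed in all, against 1 in the full fit. Il5ra was below the background limit on every array kept. With only day 3 replicate 1 left out, no member passed at day 3 in limma's fit (lowest adjusted p = 0.163).

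The start sites of both genes are shown because a sequence motif of GATA factors, which direct the making of eosinophils, lies close to them. The 250 bases before the start are RefSeq's, build GRCm38.p6, in the direction of the gene, and capitals mark AGATAA or TGATAA or its complement on either strand. Ccr3 is at chr9:124021721-124021970 on the plus strand, with the match from 30 to 25 bases before the start. Il5ra is at chr6:106749038-106749287 on the minus strand, with the match from 74 to 69 bases before it. Epx, a granule gene with no match in its window, is at chr11:87875537-87875786 on the minus strand and is given for comparison.
Ccr3: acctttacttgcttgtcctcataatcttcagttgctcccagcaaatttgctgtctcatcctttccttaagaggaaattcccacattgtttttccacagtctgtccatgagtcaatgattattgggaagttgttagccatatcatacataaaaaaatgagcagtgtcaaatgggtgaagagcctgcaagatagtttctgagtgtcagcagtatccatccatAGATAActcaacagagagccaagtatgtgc
Il5ra: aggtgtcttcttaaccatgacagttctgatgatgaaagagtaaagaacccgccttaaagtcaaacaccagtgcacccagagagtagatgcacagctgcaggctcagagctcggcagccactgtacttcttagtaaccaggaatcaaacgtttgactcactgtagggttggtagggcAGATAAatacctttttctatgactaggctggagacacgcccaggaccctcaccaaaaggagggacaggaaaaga
Epx: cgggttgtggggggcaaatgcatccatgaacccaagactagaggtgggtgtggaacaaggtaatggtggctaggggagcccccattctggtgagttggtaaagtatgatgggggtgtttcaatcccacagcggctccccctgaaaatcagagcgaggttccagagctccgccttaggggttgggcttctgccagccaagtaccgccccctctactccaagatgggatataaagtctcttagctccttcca
Of the 9 members, 7 are in the promoter table, and 3 of these 7 hold the GATA motif (Prg3 too, 123 to 118 bases before its start), against 16.6% of 32851 promoters. A C/EBP motif, TTGCNNAA, lay in 1 of 7 (Adgre4) against 9.56%, and a PU.1 motif, GAGGAAG, in 1 of 7 (Siglece) against 10.6%. A match is a description of the sequence and was set against no binding data. The Prg3 window with a match belonged to a gene near background on all arrays.

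Siglece, a lectin of the same family as Siglecf that carries an inhibitory signal, spread over the groups in another way. Its values were 4.61, 4.48 and 4.23 with intact liver, 5.33, 4.24 and 6.14 at day 1, 4.24, 4.37 and 5.27 at day 3, and 5.49, 5.55 and 5.68 at day 7. The 3 arrays of day 7 were close together and above all intact arrays, whereas days 1 and 3 overlapped intact. The difference at day 7 was 1.13 ± 0.39 (adjusted p = 0.686). All 3 arrays of day 7 were above background and no intact array was, so the fold has only a bound. Taken as the day 7 mean against the mean background limit of the intact arrays, the estimated fold was at least 1.32. This bound on the estimate makes no allowance for the spread between arrays. Fitted with the compared groups alone, that difference had an adjusted p of 0.0431, with 48 probe sets called.

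Adgre4, an adhesion receptor of myeloid cells, was measured at 6.06, 6.15 and 6.54 with intact liver, 6.18, 2.16 and 6.50 at day 1, 6.37, 6.36 and 6.72 at day 3, and 5.93, 7.27 and 6.89 at day 7. A single array, day 1 replicate 2, was low, and the other 11 lay within 5.93 to 7.27. Its difference at day 1 was -1.30 ± 0.84 with all arrays and 0.09 without that array. At days 3 and 7 it was 0.23 ± 0.84 and 0.44 ± 0.84 (adjusted p = 1.00 for both).

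Of the granule proteins, Prg2 encodes major basic protein, the crystalline core of the eosinophil granule. With intact liver its log2 levels were 6.53, 7.21 and 8.82, and at day 1 they were 7.00, 5.91 and 7.00. At day 3 they were 4.75, 6.24 and 6.94, and at day 7 6.41, 8.51 and 6.83. Day 3 replicate 1 was the lowest of all arrays and intact replicate 3 the highest, and the groups overlapped. The difference was -0.89 ± 0.69 at day 1, -1.55 ± 0.69 at day 3 (unadjusted p = 0.044, adjusted p = 1.00) and -0.27 ± 0.69 at day 7. With day 3 replicate 1 left out, the difference at day 3 was -0.93, and with intact replicate 3 left out it was -0.90.

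Epx, the peroxidase that makes hypobromous acid, followed Prg2 from array to array. Its values were 3.78, 4.67 and 6.28 with intact liver, 4.75, 2.97 and 4.96 at day 1, 2.86, 3.19 and 4.10 at day 3, and 3.89, 5.85 and 4.17 at day 7. As for Prg2, the high arrays were intact replicate 3 and day 7 replicate 2, and only 2 of 12 exceeded the background limit. The difference at day 3 was -1.53 ± 0.70 (unadjusted p = 0.048, adjusted p = 1.00), and at days 1 and 7 it was -0.68 and -0.27. At day 3 it was -1.27 with day 3 replicate 1 left out and -0.84 with intact replicate 3 left out.

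Intact replicate 3 was also the array with the highest Mcpt8, Prss34 and Cpa3 of the 15 basophil and mast cell markers, which are named after their values were seen. Mcpt8, a basophil protease, was at 3.65, 4.02 and 7.08 in the intact replicates and between 2.13 and 3.45 on all 9 resected arrays. Prss34 was at 5.89 and Cpa3 at 4.91 on intact replicate 3, against at most 3.24 and 3.44 on the other 11. The list of 15 basophil and mast cell markers had a mean log2 level of 3.26 to 4.11 on intact arrays and 3.04 to 3.34 on resected ones. Of the 15 markers, 5, 5 and 8 were higher than intact at days 1, 3 and 7, with medians of -0.13, -0.19 and 0.01 and 0 passed, and in each group 10 to 14 were below the background limit on all 3 arrays. Hdc, which neutrophils also make, had a mean of 8.83 with intact liver and 9.41 at day 7. The part of these genes in the levels of Prg2 and Epx was not tested. Without intact replicate 3, the median difference of the 4 granule proteins at day 7 was 0.40 against -0.10 with it.

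Prg3, the homolog of Prg2, neighbours Prg2 on chromosome 2 in the RefSeq table of GRCm38.p6. Its levels ran from 2.10 to 2.89 over the 12 arrays, 0 of them above the background limit, and its differences from intact were -0.07, -0.18 and 0.07 at days 1, 3 and 7. Prg2 was above the limit on 11 of 12 arrays. The neighbours of Ccr3 on chromosome 9, where several chemokine receptor genes lie side by side, did not share its pattern of values: Ccr1 differed from intact by 0.16 ± 0.34 at day 3 and 0.42 ± 0.34 at day 7, and Ccr2 by -1.05 ± 0.45 and -1.22 ± 0.45.

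Ear6, a ribonuclease of the eosinophil-associated family, was above the background limit on all 12 arrays. Its values were 7.16, 7.27 and 7.43 with intact liver, 8.32, 8.78 and 7.86 at day 1, 6.45, 6.86 and 7.42 at day 3, and 8.35, 8.38 and 7.45 at day 7. All arrays of days 1 and 7 lay above those of intact liver, and all of day 1 lay above day 3. The difference was 1.03 ± 0.31 at day 1 (2.05-fold, adjusted p = 0.363), -0.38 ± 0.31 at day 3 and 0.77 ± 0.31 at day 7 (1.70-fold, adjusted p = 0.786), and day 3 against day 1 was -1.41 ± 0.31 (adjusted p = 0.292). Genes of this family are near-identical copies, and of the 2 transcripts in the probe set's annotation 1 was found under Ear6 in the RefSeq table, so which copies the probe set reports is uncertain.

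Of the rest of the ribonuclease family, 6 of 10 genes were measured, Ear6 included, and 0 passed. Ear10, which alveolar macrophages also make, stayed near 8.13 ± 0.07 with intact liver and 8.01 ± 0.27 at day 7. Rnase2a was 7.97, 6.51 and 6.53 with intact liver and 6.11 ± 0.11 (SD, n = 3) at day 3, a difference of -0.89 ± 0.47 (adjusted p = 1.00).

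Alox15, which oxidises arachidonic acid and is made by eosinophils and by some macrophages, showed no difference beyond its spread. Its values were 4.95, 6.52 and 7.08 with intact liver, 5.13, 5.85 and 5.65 at day 1, 5.79, 6.33 and 7.05 at day 3, and 5.44, 7.18 and 6.65 at day 7. All groups overlapped, and the differences from intact were -0.64 ± 0.54, 0.21 ± 0.54 and 0.24 ± 0.54. Of the 15 measured genes of the lipoxygenase and leukotriene pathway, 8, 8 and 10 were higher than intact at days 1, 3 and 7, and 0 passed.

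**Figure D2:**
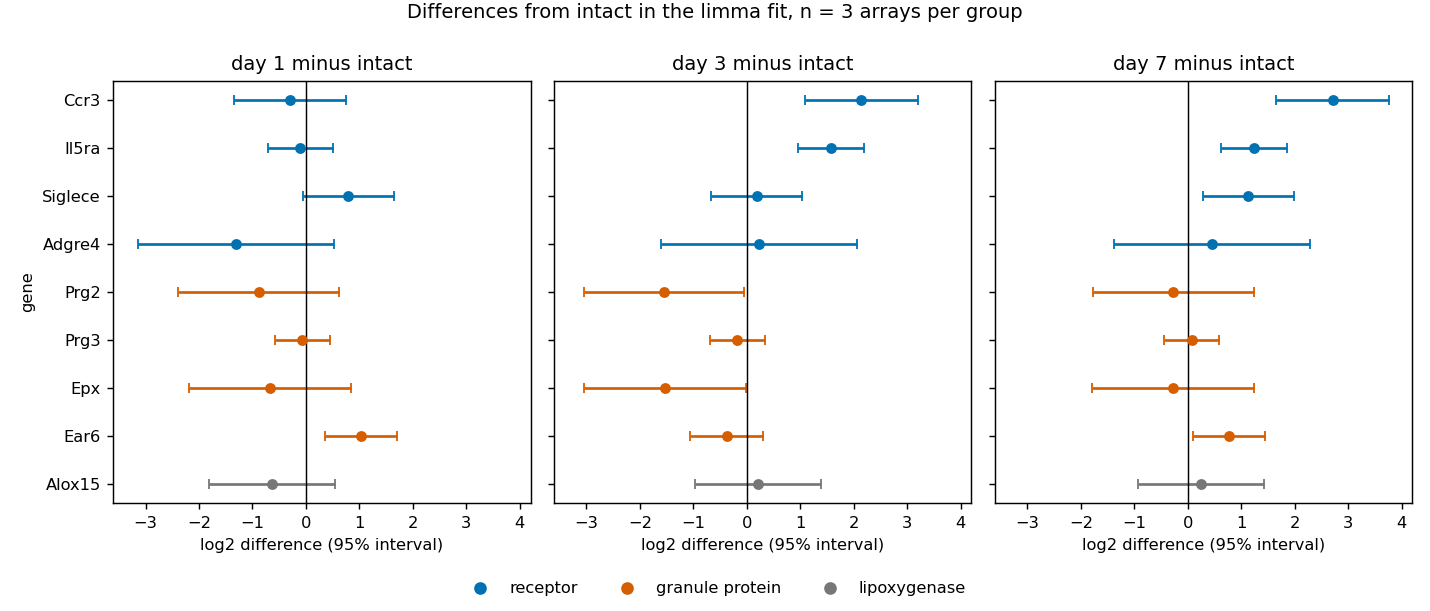
Difference from intact liver, in log2 units, of each member at days 1, 3 and 7 (3 panels), with 95% intervals from limma (n = 3 arrays per group). Ccr3 and Il5ra have intervals above 0 at days 3 and 7, Ear6 at days 1 and 7, and Siglece at day 7. The intervals of Prg2 and Epx at day 3 lie below 0, with upper ends of -0.05 and -0.01. No member passed the adjusted threshold.

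As groups, the 4 receptors had a median difference from intact of -0.20, 0.90 and 1.18 at days 1, 3 and 7, and the 4 granule proteins of -0.37, -0.95 and -0.10. The receptor median at day 1 was 0.07 without day 1 replicate 2. Without intact replicate 3 the granule protein median was -0.08 at day 1 and -0.58 at day 3, and without the weakly separating arrays it was -0.54 at day 3. Over all 22206 probe sets the median was -0.01, 0.00 and -0.01. At day 3, 4 of 4 receptors were higher than intact and 4 of 4 granule proteins lower, and of these Ccr3, Il5ra, Prg2 and Epx had an unadjusted p under 0.05. The 95% intervals of the others included 0 (Siglece 0.18 ± 0.39, Adgre4 0.23 ± 0.84, Prg3 -0.18 ± 0.24, Ear6 -0.38 ± 0.31). On all intact arrays 3 of 4 receptors were below the background limit. On all day 3 arrays 2 of 4 receptors and 2 of 4 granule proteins were. Whether the receptors and granule proteins differ from each other was not tested.

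Of the 36 pairs of members, 3 are given here, chosen after their values were seen. Prg2 and Epx had Pearson r = 0.947 and Spearman rho = 0.958 over 12 arrays. Without the 2 arrays farthest from the median of Prg2, r was 0.941. A permutation test gave p = 1e-05 for each, the smallest it can give (Benjamini-Hochberg adjusted 0.00036 over 36 pairs). It moved values freely over the 12 arrays, so its p cannot separate a relation of the genes from differences in group or array quality. Epx exceeded the background limit on only 2 of the 12 arrays. Taken as deviations from the group means over the 12 arrays, r was 0.927 for Prg2 and Epx, 0.958 for Ccr3 and Il5ra and 0.724 for Ccr3 and Prg2. Ccr3 falls into separate clusters, so its pairs are also given within each cluster of 6 arrays, as descriptions with no test, since pairs and clusters were chosen after the values were seen. For Ccr3 and Il5ra, r was 0.810 and rho 0.257 over intact and day 1, and r was -0.624 without the 2 arrays farthest from the median of Ccr3, so that value rests on them. Over days 3 and 7, r was 0.724 and rho 0.771, with r = 0.496 without the 2 farthest arrays. For Prg2 and Ccr3, r was 0.121 and rho -0.042 over the 12 arrays. Over days 3 and 7 their r was 0.883 and rho 0.829, with r = 0.914 without the 2 arrays farthest from the median of Prg2. Over intact and day 1 r was 0.518 and rho 0.143, with r = -0.846 without the 2 farthest arrays. Ccr3 was below the background limit on all 6 of these arrays, so whether the relation holds there cannot be told. The arrays also differ in quality, and each cluster pools a pair of groups.

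**Figure D3:**
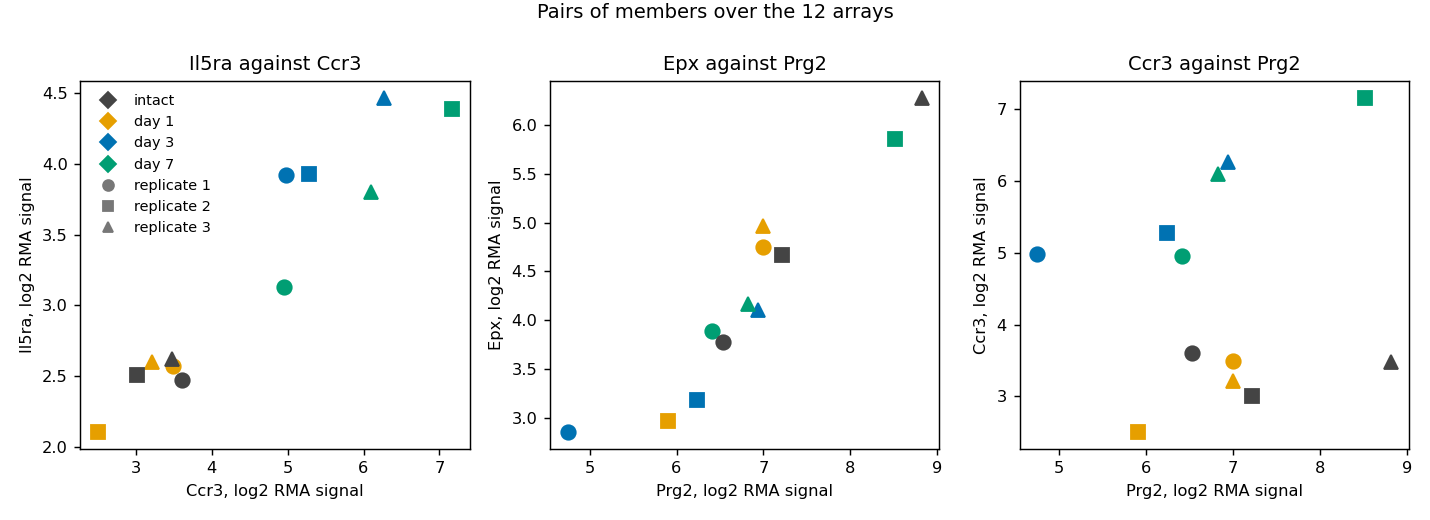
Log2 level of pairs of members on the 12 arrays, with colours for groups and symbols for replicates. Prg2 and Epx lie along one line over all groups, and in the panel of Ccr3 against Prg2 the 6 arrays of days 3 and 7 stand higher in Ccr3 than the other 6 (4.96 to 7.16 against 2.50 to 3.60).

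Of 17110 named genes, those most like Ccr3 by Pearson r over the 12 arrays were F5 (coagulation factor V, r = 0.929), Ripor2 (0.926), Birc3 (0.924), Tmem71 (0.920) and Gcnt1 (0.918). Those most like Il5ra were Tmem71 (0.971), Birc3 (0.937), Phf21a (0.935), F5 (0.931) and Fem1c (0.903). For Prg2 they were Jund (0.941), Emilin2 (0.917), Ndufa4l2 (0.916), Herpud1 (0.878) and Cactin (0.877), and for Epx Ndufa4l2 (0.925), Mefv (0.912), Jund (0.875), Hspa1a (0.860) and Myo1c (0.856). Each was chosen as the highest among all genes compared, on arrays that also differ in group and quality, and carries no test. F5 stood at a mean of 5.79 with intact liver, 4.99 at day 1, 7.00 at day 3 and 7.05 at day 7.

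The other receptors and surface proteins of eosinophils, 25 of 27 measured, had 9, 17 and 15 genes higher than intact at days 1, 3 and 7 and 0 passed, with medians of -0.16, 0.16 and 0.13. The largest difference at day 3 was that of Cd63, a granule membrane tetraspanin that many cells make, which was 1.90 ± 0.26 higher (adjusted p = 0.067). Of the chains that pair with Il5ra or share its beta chain, Csf2ra differed by 0.33 ± 0.23 at day 3 and 0.50 ± 0.23 at day 7, Csf2rb by -0.32 ± 0.22 and 0.27 ± 0.22, and Il3ra by -0.05 and -0.37. Adgre1, a macrophage marker, was higher than intact by 0.53 ± 0.17, 0.43 ± 0.17 and 0.63 ± 0.17 at days 1, 3 and 7, and none of these differences passed. In the Siglec family, 9 of 9 measured, 5 genes were higher at day 3 and 5 at day 7, with medians of 0.00 and 0.03, and 0 passed.

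Of the ligands, 12 to 13 of 14 genes in each group were below the background limit on all 3 arrays. The eotaxins Ccl11 and Ccl24 and interleukin-5 (Il5) were below it on all 12, with means of 2.68 to 3.11, 3.31 to 4.05 and 2.35 to 2.62 over the groups. Ccl5, a ligand of Ccr3 and other receptors, was at a mean of 5.50 with intact liver and 4.12 at day 3, a difference of -1.38 ± 0.28 (adjusted p = 0.211). Of 15 transcription factors of eosinophils, 8 were higher at day 3 and 5 at day 7, and 0 passed. Gata1 differed by 0.26 ± 0.18 and Cebpe by 0.01 ± 0.19 at day 3.

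Of 15 further eosinophil markers that are no members, 13 were measured, 5, 7 and 6 were higher at days 1, 3 and 7, and 0 passed. Their medians were -0.02, 0.01 and -0.04, and 6 or 7 of 13 were below the background limit on all 3 arrays of a group. At day 3, 7 were higher and 6 lower. Hrh4 differed by 0.22 ± 0.21 and Ptgdr2 by 0.27 ± 0.22 (adjusted p = 1.00 for both), and both were below the background limit on all 12 arrays. In the other direction, Rnase2a differed by -0.89 ± 0.47, Csf2rb by -0.32 ± 0.22 and Ltc4s by -0.26 ± 0.24 at day 3.

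Markers of other cell types also differed between the groups. Of 19 measured neutrophil markers, 14, 15 and 18 were higher at days 1, 3 and 7, with medians of 0.64, 0.49 and 1.03 and 0 passed, and their mean level ran from 6.41 to 6.65 with intact liver, 6.62 to 7.49 at day 1, 6.78 to 7.55 at day 3 and 7.19 to 7.84 at day 7. Cxcr2, a chemokine receptor of neutrophils, was at 6.29, 5.71 and 6.21 with intact liver and 7.81, 8.07 and 7.47 at day 7 (1.71 ± 0.31, adjusted p = 0.140), and S100a8 was at 9.13, 8.12 and 8.38 with intact liver and 9.88, 10.29 and 9.28 at day 7. The 6 measured primary granule genes of neutrophil precursors were below the background limit on all 12 arrays. Their part in the levels of Ccr3 and Il5ra was not tested.

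Lung epithelial genes, 13 of 14 measured, were lower in 12, 12 and 12, with medians of -1.26, -1.09 and -1.46, and 1 passed at day 7. Endothelial and fibroblast genes, 14 of 14 measured, were lower in 14 at each day, with medians of -1.57, -1.25 and -1.56 and 0, 1 and 2 passed. Col3a1 fell by 2.37 ± 0.25 at day 3 (adjusted p = 0.014). Their mean level was 5.69 to 6.55 on intact arrays and 3.78 to 5.58 on resected ones. Monocyte and interstitial macrophage genes had medians of -0.26, -0.17 and -0.34, dendritic cell genes of -0.80, -0.20 and -0.14, and B, T and NK cell genes of -0.17, -0.21 and -0.36, with 0 passed in each. The alveolar macrophage markers had medians of -0.09, -0.14 and 0.04 and 0 passed.

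**Figure D4:**
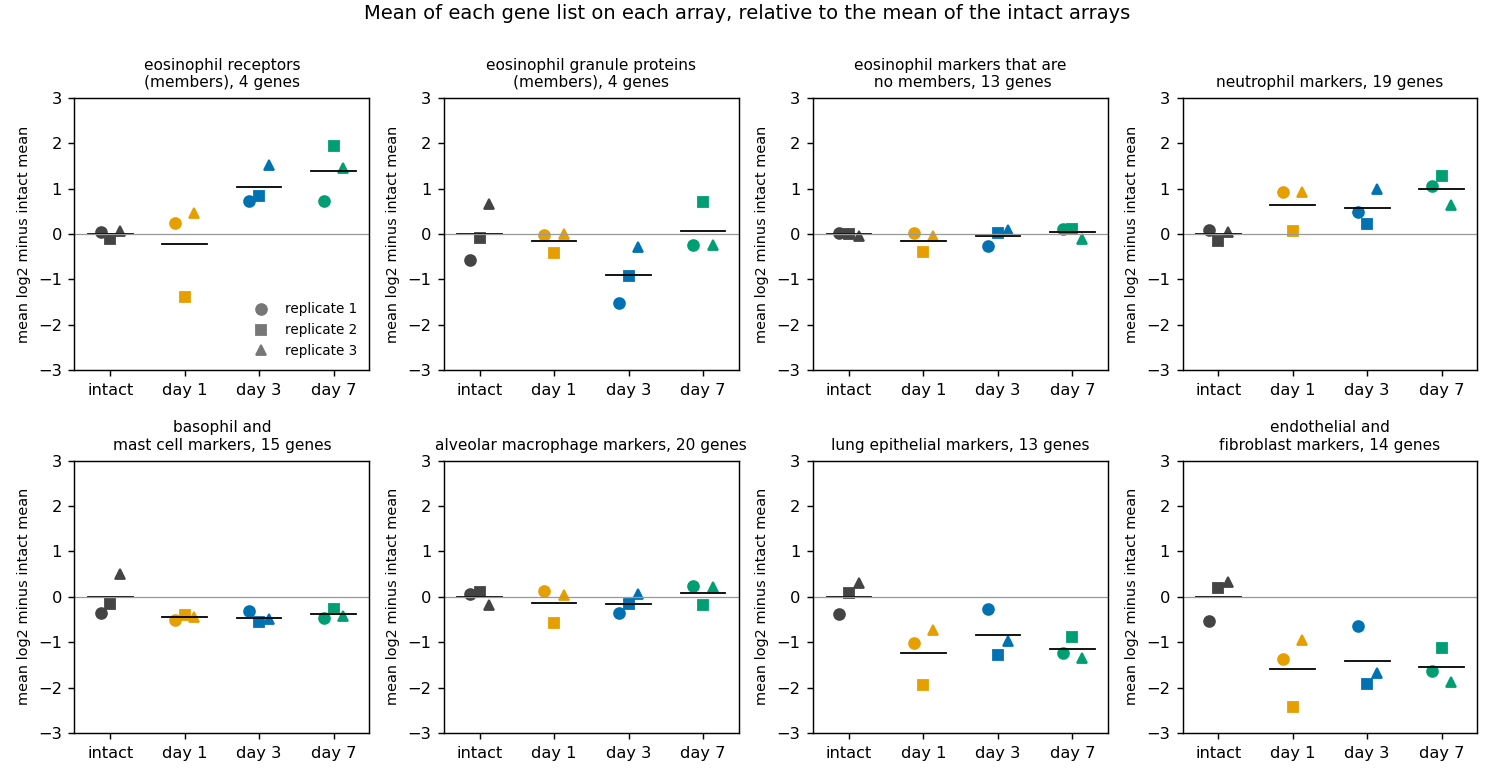
Mean log2 level of gene lists on each of the 12 arrays minus the mean of the intact arrays, by group; symbols are replicates and bars group means. The receptor list stands higher on all arrays of days 3 and 7 (4.88 to 6.09 before subtraction, against 2.75 to 4.61 on the other arrays), and endothelial and fibroblast markers stand lower on all resected arrays (3.78 to 5.58 against 5.69 to 6.55). In the receptor list, Siglece and Adgre4 overlapped intact at day 3, and Il5ra was below the background limit on all 12 arrays. The value of 2.75 is that of day 1 replicate 2, where Adgre4 was at 2.16.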

How the data were processed

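The submitters' processing notes name RMA and the Transcriptome Analysis Console. The authors deposited log2 signals per probe set, per the labels and the values themselves. Version, genome build and scan batches are not given in the sources used here. The values were used as deposited. The table holds 28846 probe sets; 6640 controls were left out of the tests.

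One linear model over 12 arrays, with group as the term, was fitted with limma (version 3.58.1; R 4.3.3) and default empirical Bayes moderation. The p-values were two-sided and Benjamini-Hochberg adjusted over 22206 probe sets, with a level of 0.05. The self-test ran on simulated data. An exact test of 3 against 3 arrays cannot reach that level.

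The members and the 21 gene lists (212 of 228 distinct genes measured) were chosen with earlier results of these data known. All 9 members are named. Beside them are the 5 genes most like Ccr3, Il5ra, Prg2 and Epx, receptor partners, the Ear and Siglec families and the ligands. Other genes named from the lists followed no fixed ranking and are not always those with the smallest p at day 3. Basophil genes beside Prg2, neutrophil genes and the neighbours were named after their values were seen. Replicate numbers did not pair the arrays (18 same-numbered pairs, r -0.241 to 0.258, 3 over 0.1).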

Additional observations from a re-analysis of the deposited data

How the results depend on the processing

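No member passed in any leave-one-out fit, whose counts of members called ran from 0 to 0. In day 3 against intact, 2 members passed with array weights and 2 without the weakly separating arrays, in each case Ccr3 and Il5ra. In day 7 against intact, 1 passed with only the compared groups (Siglece), 3 with array weights (Ccr3, Il5ra, Siglece) and 1 without the weakly separating arrays (Ccr3). The counts over all probe sets were 1, 298 and 252 for day 3 in the full fit, with array weights and without those arrays, and 4, 402 and 280 for day 7, with 48 for only the compared groups. The cause was not tested.

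With a replicate block, 0 members passed, the lowest adjusted p being 0.240 at day 3 and 0.230 at day 7, and 0 and 8 probe sets passed in all. Numbers do not pair the arrays, so the block is given here only.

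At day 1 the receptor median ranged over -0.35 to 0.07 and the granule protein median over -0.67 to -0.08. The receptor median ranged over 0.75 to 1.04 for day 3 and 0.82 to 1.37 for day 7. The granule protein median ranged over -1.26 to -0.54 at day 3, and at day 7 it ran from -0.46 to 0.40. Of 585 member fits against intact, 22 changed sign, in 11 of 27 results, none of them called. In 585 fits between days 32 did.

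Members whose groups did not overlap, in either direction, were also counted without the weakly separating arrays, an alternative chosen after seeing the data. Against intact they numbered 2 at day 1 (28.1% of all probe sets did so), 2 at day 3 (27.4%) and 4 at day 7 (27.4%). Between days they numbered 7 for day 3 against day 1 (39.2%), 3 for day 7 against day 3 (35%) and 5 for day 7 against day 1 (33.3%). List medians moved to 0.26 (Siglec family, day 3), 0.47 (common beta chain receptors, day 7) and -0.34 (dendritic cells, day 1).

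A filter on dim probe sets kept 5762 and 6 members. It dropped Il5ra, Prg3 and Epx. Signal near background limits Il5ra, Prg3 and most of Ccr3 and Epx.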
